A study of Mus musculus with 6 samples.

Results

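The comparison described here sets mProx24 cells exposed to low oxygen, high glucose and palmitate together (triple stimuli) against unstimulated control cells, with 1 array for each condition. These are 2 of the 6 arrays of the series. mProx24 is a cell line from the mouse kidney proximal tubule, strain C57B6 per the labels, so both RNAs come from 1 line and no animals were sampled. All cells grew in Dulbecco's modified Eagle's medium with 10% fetal calf serum. Control cells were kept at 20% oxygen and are labelled NG and PBS, and triple stimuli cells are labelled 1%, HG and Pal. The protocol gives 12 hours at 1% oxygen followed by 9 hours with palmitate at 150 µM, bound to 0.15% bovine serum albumin. The glucose concentrations, and whether control cells received albumin, were not given in the sources used here. The other arrays were hypoxia alone, triple stimuli with rapamycin at 0.4 µg/ml, and 2 single stimuli at 20% oxygen whose scanner files and value table carry exchanged labels. These last are called array A (scanner label High glucose, table label High FFAs) and array B (the reverse), and neither was relabelled. No difference has a replicate check, since each condition has a single array, and therefore no test was made and no value carries a replicate error.

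Genes were compared where the scanner software marked their probe as well above background on both arrays. This held for 15503 of 34505 gene names, which is 44.9%. A level is the log2 signal relative to the 75th percentile of its array, so that 0 is the level of that percentile, and a difference is the triple stimuli level minus the control level. Levels of different probes are not comparable with each other. A gene is called bright when its mean level over the 6 arrays was 0 or above, and higher or lower when the difference reached 2-fold, which is 1 on the log2 scale.

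Proximal tubule cells reabsorb most of the filtered glucose, amino acids and salt, and in the living kidney they run on fatty acid oxidation more than on glycolysis. Low oxygen stabilises hypoxia-inducible factor (HIF), a transcription factor that raises glycolytic enzymes and lowers the use of oxygen by mitochondria. Palmitate, a saturated fatty acid, activates the lipid-sensing PPAR receptors and can set off the integrated stress response, in which phosphorylation of the initiation factor eIF2 slows translation in general and favours translation of the transcription factor ATF4. High glucose acts on the sensors MondoA and ChREBP. Low oxygen, a high glucose supply and fatty acids are each features of the diabetic kidney, which is the setting named in the title of the series.

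The technical state of the arrays bears on every value that follows. Between 40.3% and 43.8% of spots were well above background on the 6 arrays, and 0 spots were saturated. Control lay on the first row of the slide and triple stimuli on the second, with the other 1% oxygen arrays, which means that oxygen and the row of the slide cannot be told apart. For 214 probes printed in 10 copies on each array, the SD of the difference over the copies had a median of 0.08, with a maximum of 0.16 for bright probes and 0.46 for dim ones. This is the spread between spots and not between cultures. Among 4037 genes with several measured probes, the probes of a gene differed by a median of 0.17 in their differences. The labelled cell type was checked against 32 proximal tubule genes. Of these 9 were measured on both arrays, a lower share than the 44.9% of all gene names. This count therefore does not set the cell type apart, which is taken from the labels. Among the 9 were the endocytic receptor genes Lrp2 and Cubn, the water channel gene Aqp1 and the transcription factor gene Pax8. The sodium-phosphate cotransporter gene Slc34a1, the glucose transporter gene Slc5a2 and the factor gene Hnf4a were among 19 that were not well above background on either array.

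In all, 482 genes (3.11%) were at least 2-fold higher and 226 (1.46%) at least 2-fold lower in triple stimuli. The median difference was -0.02 with an SD over genes of 0.49. Counts of list members given below are to be read beside these shares of 3.11% higher and 1.46% lower. Calls on the higher side made up 68.1% of the total, and 50.8% when each array was scaled to its median spot, a scaling that moves the median over measured genes to -0.13. The higher side also reached further, with 91 genes at least 4-fold higher against 6 lower, and 12 at least 8-fold higher against 0 lower. Among 10624 bright genes, 271 (2.55%) were higher and 105 (0.988%) lower.

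**Figure D1:**
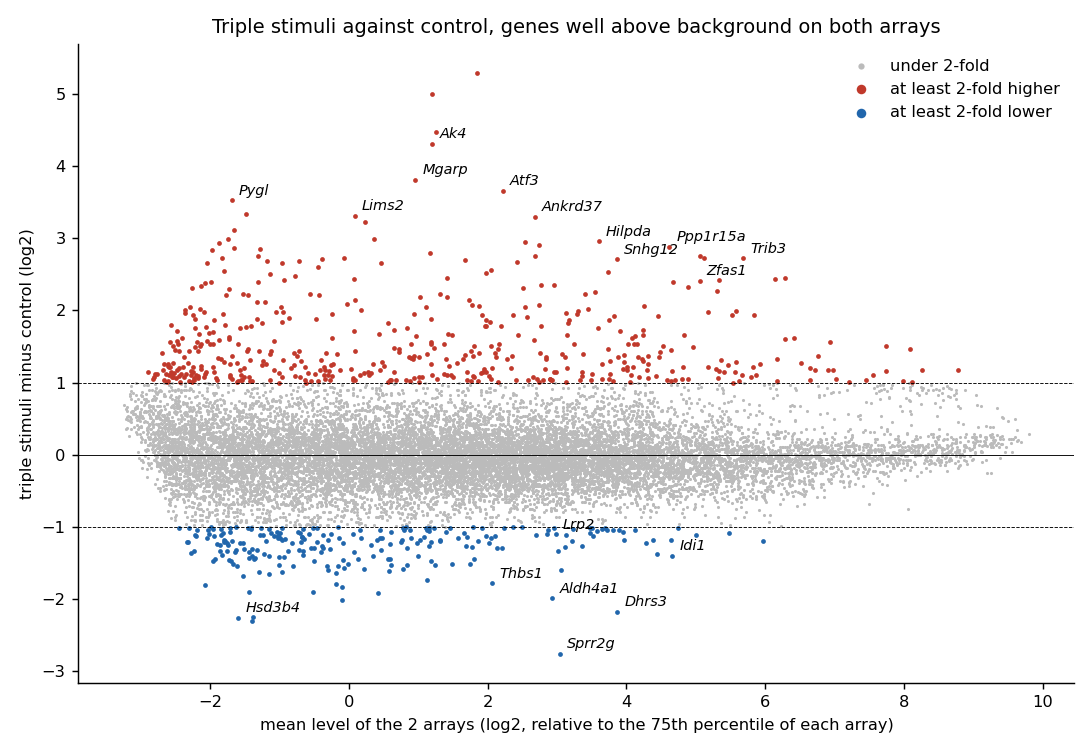
Each point is 1 of the 15503 genes well above background on both arrays, with its mean level on the 2 arrays on the x axis (log2, relative to the 75th percentile) and its difference, triple stimuli minus control, on the y axis (log2). Dashed lines mark 2-fold; 482 genes lie above the upper line and 226 below the lower one, and at least 4-fold differences are 91 against 6.

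The position of a spot on the array moved with the calls, most of all for dim genes. Genes whose probe has spots in more than 1 row are left out of these shares. In the first 64 of 384 rows of spots, 8.69% of dim genes were at least 2-fold higher, against 2.67% to 4.66% in each of the other 5 bands of 64 rows. For bright genes the first band stood at 2.33%, inside the range of 1.94% to 2.92% of the other bands. Lower calls among dim genes made up 3.11% in the first band and 1.79% to 2.96% elsewhere. Lower calls among bright genes made up 1.28% in the first band, above the 0.578% to 1.1% of the other bands. The part of spot position in single values was not tested. Of the genes named below, the bright ones with spots in the first 64 rows include Ak4, Bnip3, Slc2a1, Ldha, Eno1, Nupr1, Slc6a9, Shmt2, Phgdh and Hspa5. The others are Hsp90b1, Erbb2, Dusp6, Dusp8, Ptgs2, Tnfaip3, Dhcr7, Gnl3, Sqstm1, Gclc, Mt1, Gadd45a, Plk3, Sesn1, Krt42, Cdh6, Mrpl18, Cd3e, Snhg17 and 2610528A11Rik. The dim ones with a value are Car9, Slc7a11, Slc36a1, Pdk2, Krt13, Smad6, Ciart, Cd68 and Krt15, and they are marked again beside it.

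**Figure D2:**
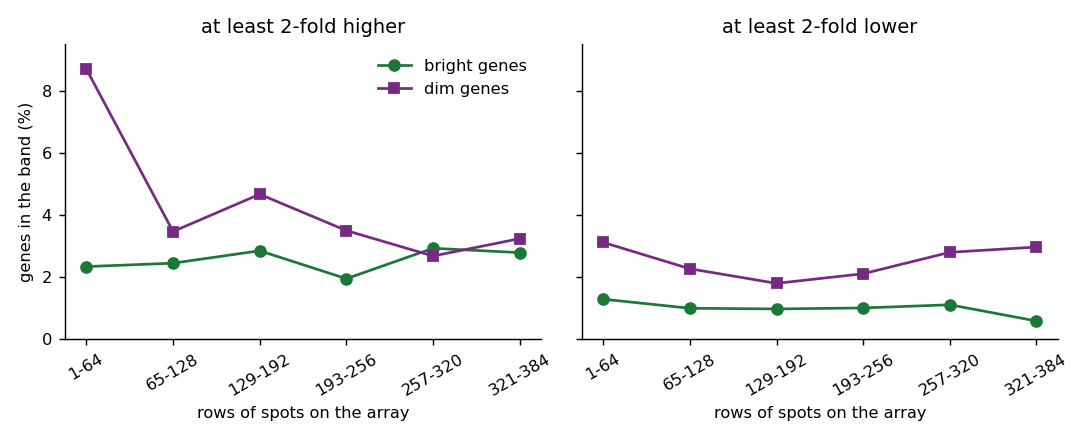
Percent of genes at least 2-fold higher (left) or lower (right) in each band of 64 rows of spots, for bright genes (circles) and dim genes (squares). Dim genes in rows 1 to 64 stand at 8.69% higher, above all other bands, and bright genes in the same rows at 2.33%.

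Genes that respond to oxygen through HIF had some of the largest differences. Ak4, a mitochondrial adenylate kinase, had a level of -0.95 in control and 3.36 in triple stimuli, a difference of 4.32 or 19.9-fold. Mgarp, which encodes a mitochondrial protein, went from -0.95 to 2.86, a difference of 3.81. On arrays A and B the levels were 0.34 and -1.05 for Ak4 and -0.86 and -0.98 for Mgarp. Ak4 on array A was thus above control by 1.29, past 2-fold. Both genes were high in hypoxia (3.64 and 3.47) and with rapamycin (2.87 and 2.41), so that the 3 arrays at 1% oxygen lay above the 3 at 20% without overlap. Outside glycolysis, 16 of 23 measured targets on the list were at least 2-fold higher and 0 lower, with a median of 1.78, against 3.11% higher and a median of -0.02 over all measured genes.

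The 300 bases around the transcription start, 250 before and 50 after it, were searched for ACGTG, the core letters that HIF binds, on both strands (CACGTG counts on both). Of the called members of both HIF lists with a promoter in the table, 14 of 23 (60.9%) held a match. Of all measured members of these lists, called or not, 19 of 38 (50.0%) did. The share was 19.7% of all 27025 promoters and 26.5% of those of measured genes. The 97 matches among 284 promoters of genes that were at least 2-fold higher make 34.2%, and those of lower genes 16.3%. A match is a description of the letters, and binding was not measured. The following 30-base windows come from RefSeq promoters of build GRCm38.p6 and are read 5′ to 3′ on the strand of the gene. They show 1 match in capitals for each of 6 genes called higher in these lists. These are not the 6 largest differences, as Ddit4 (2.44) and Hk2 (1.79), which also had windows, exceed Slc2a1 (1.66). The Slc16a3 window ends in another ACGTG, left in lower case. CACGT is the same core on the opposite strand.
Mgarp, chr3:51396749-51396778, minus strand: gagcgggtcaggCACGTaacagcgacttct
Pygl, chr12:70227797-70227826, minus strand: cctttgcgcactACGTGacctggacgttct
Ero1a, chr14:45318618-45318647, minus strand: cgcgcgccgctgCACGTccgcaggggaggc
Bnip3, chr7:138909596-138909625, minus strand: cgcacgcgccgcACGTGccacacgctcccc
Slc16a3, chr11:120949028-120949057, plus strand: caggcagcggtgACGTGcgcgggggacgtg
Slc2a1, chr4:119108697-119108726, plus strand: gtcccgccccggACGTGctccccaggcccc

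Among these targets the oxygen-sensing hydroxylase genes were higher, with Egln1 at 1.10. Egln3 was well above background in triple stimuli but not in control, and at least 19.1-fold higher (4.25 or more on the log2 scale). Its level was 0.60 in triple stimuli and 0.72 in hypoxia. Ankrd37, a target of unclear function, went from 1.03 to 4.33, and Ero1a, the oxidase of disulfide formation in the endoplasmic reticulum (ER), from -1.13 to 1.86. The mitophagy receptor genes Bnip3 (3.76 to 6.48) and Bnip3l (4.22 to 5.71) differed by 2.73 and 1.49. Glycogen genes stood on both sides of the pathway. Pygl, the liver-type phosphorylase that breaks glycogen down, differed by 3.53, and Gys1, the synthase that builds it, by 1.97. Stbd1, which binds glycogen and ties it to membranes, went from -0.23 to 2.56, and was at 1.67 on array A, -0.47 on array B and 1.06 in hypoxia. The angiogenic factor gene Vegfa differed by 1.95 and the mTORC1 inhibitor gene Ddit4 by 2.44. Car9, a carbonic anhydrase gene often used as a marker of low oxygen, was at -1.89 and -1.73, a difference of 0.16 (first 64 rows).

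In glycolysis 10 of 20 measured members were higher and 0 lower, and the median was 1.04. The steps with the largest differences were lactate export (Slc16a3, 4.17 to 6.44), diversion of pyruvate from mitochondria (Pdk1, 0.21 to 2.43), aldolase (Aldoc, 1.39 to 3.33) and hexokinase (Hk2, 1.88 to 3.67). The glucose transporter gene Slc2a1 differed by 1.66 (4.0 to 5.66). For Pfkp, the platelet-type phosphofructokinase, the probes disagreed, with 2.30 from the brightest and 0.54 from the other. Other enzymes of the same pathway were under 2-fold, with Ldha at 0.65, Eno1 at 0.66 and Gapdh at 0.51, while Aldoa reached 1.17. Of 13 measured histone demethylases, enzymes that need oxygen for catalysis, 4 were higher and 0 lower: Kdm6b (1.51), Kdm3a (1.13), Kdm4b (1.04) and Jmjd6 (1.04). Of 8 measured collagen hydroxylases and lysyl oxidases, P4ha2 (2.33) and Plod2 (1.19) were higher.

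**Figure D3:**
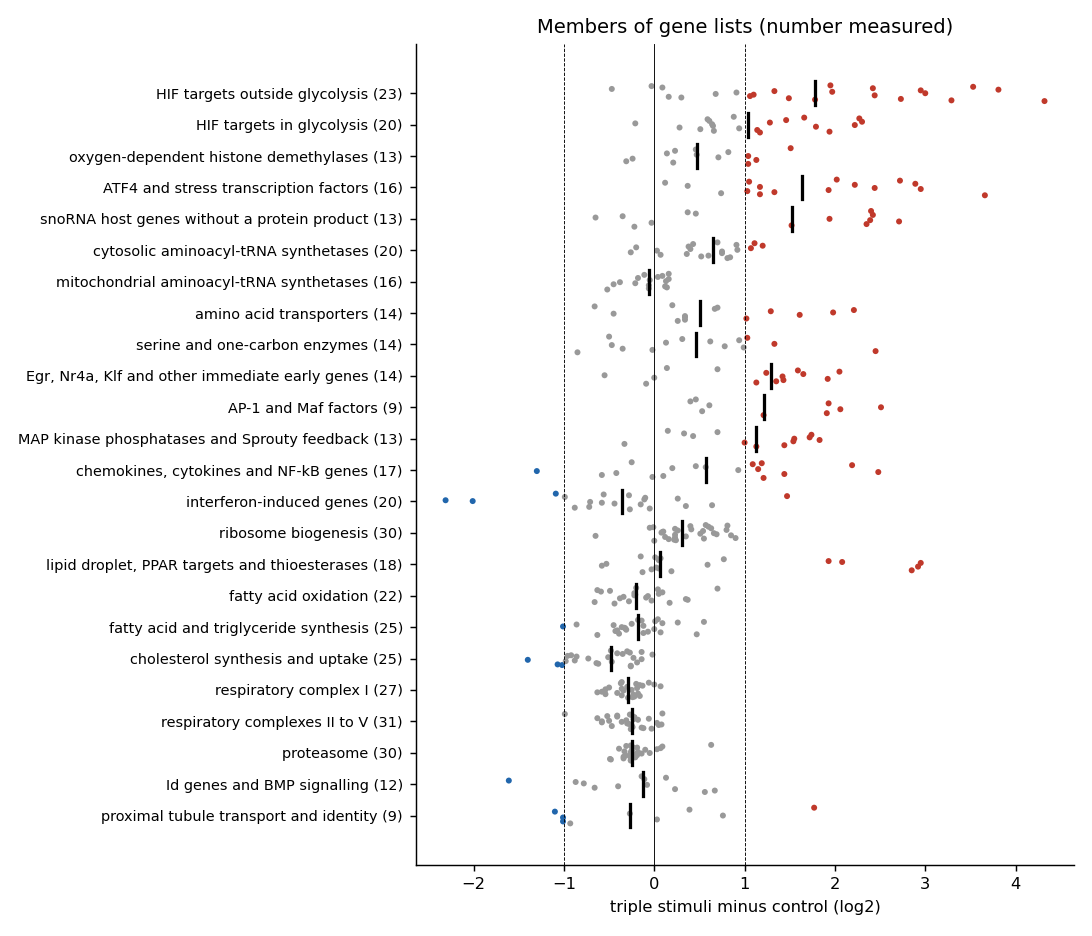
Difference, triple stimuli minus control (log2, x axis), of each measured member of 24 gene lists, with the number measured in brackets. Bars are list medians, dashed lines mark 2-fold, and red and blue points are at least 2-fold higher and lower. HIF targets outside glycolysis (median 1.78) and ATF4 and stress factors (1.63) lie furthest to the right, and cholesterol synthesis (-0.48) furthest to the left.

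Transcription factors and feedback genes of the integrated stress response were higher in 13 of 16 measured cases, with a median of 1.63. Atf3, a stress-induced repressor, went from 0.39 to 4.05, a 12.6-fold difference, and Ddit3, the stress factor CHOP, from 1.06 to 4.01. Their levels on array A, 3.38 and 3.89, were also above control, while array B stood at 0.59 and 0.85. In hypoxia Atf3 was at 0.99 and Ddit3 at 3.09. Trib3, a pseudokinase induced by ATF4, differed by 2.72 (4.32 to 7.04), and Ppp1r15a, which directs dephosphorylation of eIF2 and so closes the feedback loop, by 2.89 (3.18 to 6.06). Ppp1r15b, its constitutive relative, differed by 0.12. Nupr1 (2.22), Chac1 (1.93), which degrades glutathione, and Cebpb (1.33) were also higher, and Atf4 itself differed by 1.17.

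The composite letters to which ATF4 and C/EBP factors bind together, TGATGNAAN, were searched on both strands. They occurred in 4 of 13 promoters (30.8%) of called members of this list and in 4 of 15 (26.7%) of all measured members. The share was 4.04% of all promoters, 2.15% of those of measured genes and 4.93% of those of higher genes. A trio of these windows is given for the genes whose levels are described above, with the match in capitals on the opposite strand (GRCm38.p6, RefSeq, on the strand of the gene).
Atf3, chr1:191183425-191183454, minus strand: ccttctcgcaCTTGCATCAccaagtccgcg
Nupr1, chr7:126625562-126625591, minus strand: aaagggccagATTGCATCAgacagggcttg
Chac1, chr2:119351038-119351067, plus strand: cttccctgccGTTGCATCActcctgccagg

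Genes that supply and charge amino acids had fewer members past 2-fold. Of 20 measured cytosolic aminoacyl-tRNA synthetases, which join amino acids to their tRNAs, 3 were at least 2-fold higher (Sars 1.20, Wars 1.11, Nars 1.07), and the list median was 0.65. The 16 measured mitochondrial synthetases had 0 higher and 0 lower, with a median of -0.05. Of 14 measured amino acid transporters 5 were higher, led by the cystine importer gene Slc7a11 (-2.88 to -0.67, spot in the first 64 rows), the glycine transporter gene Slc6a9 (4.19 to 6.17) and Slc3a2, the heavy chain shared by several transporters (5.49 to 7.09). Of the 5, 3 had their spot in the first 64 rows, among them Slc7a11 and Slc36a1 (1.02), which are dim. In serine and one-carbon metabolism 3 of 14 were higher, among them Aldh1l2 (2.45) and Shmt2 (1.03). Phgdh, the first enzyme of serine synthesis, differed by 0.13, and Aldh1l1, the cytosolic relative of Aldh1l2, by -0.85.

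Genes of the ER folding machinery showed a split. Of 22 measured, 3 were higher and 0 lower, against 3.11% and 1.46% over all measured genes, and the median was -0.07. The 3 were Herpud1 (1.71), which serves degradation of ER proteins, the cochaperone gene Dnajb9 (1.42) and the sensor gene Atf6 (1.30). The major chaperone gene Hspa5 differed by 0.73 (7.09 to 7.82), Hsp90b1 by 0.05, and the lectin chaperone gene Calr by -0.59. Hspa5 stood at 7.83 on array A and 6.76 in hypoxia, on either side of its control level.

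Growth factor signalling and its feedback formed the next group. Areg, which encodes amphiregulin, a ligand of the EGF receptor, went from -1.38 to 1.84, a 9.26-fold difference. It was at -1.92 in hypoxia, 0.31 on array A, -1.41 on array B and 0.42 with rapamycin, so the triple stimuli array was the highest of the 6. Hbegf, another ligand, went from 3.49 to 4.85. Ereg was well above background in triple stimuli but not in control, and the receptor genes Egfr and Erbb2 differed by -0.05 and -0.70. Of 9 measured AP-1 and Maf factors, which act early after growth signals and stress, 5 were higher, namely Junb (2.51), Jun (2.06), Maff (1.93), Fosl1 (1.91) and Fosb (1.21). Of 14 other immediate early genes 9 were higher and 0 lower, and the median was 1.30. Myc, the growth-promoting factor, went from 1.51 to 3.56, and its level was 2.96 on array A, 1.36 on array B and 1.57 in hypoxia. Egr1 differed by 1.35 (3.20 to 4.55), with 1.24 in hypoxia.

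Genes that switch the MAP kinase pathway off were higher in the same comparison, in 7 of 13 measured phosphatase and Sprouty genes with 0 lower. Dusp4 went from 1.12 to 2.96, Dusp6, which acts on ERK, from 3.38 to 5.11, and Dusp8 from -0.21 to 1.52. Spry1 differed by 0.15. The AP-1 letters TGANTCA were searched in 17 promoters of measured AP-1, Maf and other immediate early genes, and 0 held a match. Promoters of the phosphatase and Sprouty genes were not counted apart. The share was 7.93% of all promoters, 4.71% of those of measured genes, 8.1% of those of higher genes and 9.52% of those of lower genes. These letters were looked for in this window only.

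Inflammatory genes lay on both sides of 0. Of 17 measured chemokine, cytokine and NF-kB genes, 7 were higher and 1 lower. Ptgs2, the inducible cyclooxygenase, went from -0.07 to 2.12, Cxcl1 and Cxcl2, which attract neutrophils, differed by 1.44 and 2.48, and Tnfaip3, an inhibitor of NF-kB, by 1.19. Cxcl5, a chemokine of the same receptor, was lower at 1.48 against 2.78. Il6, Il1a and Ccl7 were not well above background on either array. Interferon-induced genes had 1 higher and 3 lower of 20 measured, against 3.11% and 1.46% over all measured genes. Their median was -0.36, and -0.15 over the bright members. Ifit3, an antiviral protein gene, was at 0.90 in control and -1.11 in triple stimuli, and Ifit3b at -0.24 and -2.55. In both cases the triple stimuli array was the lowest of the 6, and hypoxia stood at 0.70 and -0.34, near control. Xaf1 was lower by 1.09 on the log2 scale and Isg20 higher by 1.47, and the signalling factor gene Irf1 differed by 0.26.

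The interferon response letters (GAAA, any 2 bases, GAAA), on either strand, occurred in 9 of 18 promoters of measured members of that list. The share was 3.49% of all promoters and 2.63% of those of measured genes. Promoters of higher genes held them in 3.52% of cases and those of lower genes in 3.4%. The promoters of Ifit3 and Ifit3b share the windows, since the genes are near-identical neighbours, and signal on their probes may not separate them. The match is in capitals, on the strand of the gene (GRCm38.p6, RefSeq).
Ifit3, chr19:34583363-34583392, plus strand: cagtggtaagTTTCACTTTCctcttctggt
Ifit3b, chr19:34607759-34607788, plus strand: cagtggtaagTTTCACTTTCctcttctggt

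Lipid genes divided by role. Genes that store lipid or respond to PPAR were higher in 5 of 18 measured cases with 0 lower, although the list median was 0.06. Hilpda, which inhibits lipolysis at lipid droplets, went from 2.12 to 5.08 (other probe 3.21), Angptl4, a secreted inhibitor of lipoprotein lipase, from 1.29 to 4.20, and Plin2, a droplet coat protein, from 4.87 to 6.80. Angptl4 was at 4.53 on array A and 0.89 in hypoxia, while Hilpda was at 3.87 and 4.0 on these arrays. Acot2, a mitochondrial thioesterase, went from -2.71 to 0.14, and has close relatives that its probe may also bind. Enzymes of fatty acid oxidation were all under 2-fold, 22 measured with a median of -0.21, Acadm at -0.66 and Hadhb at -0.63 being the furthest from 0 on the lower side.

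All 25 measured genes of cholesterol synthesis and uptake were below 0, against 8093 of 15503 over all measured genes. Their median was -0.48, and 3 were at least 2-fold lower, against 1.46% lower over all measured genes. Among them were Idi1, which isomerises the isoprenoid building block (5.36 to 3.96), and Dhcr7, a late enzyme of the pathway (1.15 to 0.08). Hmgcs1 (-0.98) and Mvk (-0.96) were close to the 2-fold line. Among 25 measured genes of fatty acid and triglyceride synthesis the median was -0.18, with 18 below 0. The elongase gene Elovl6 was the 1 that reached 2-fold (-1.01), and the synthase gene Fasn was at -0.86. The sterol response letters TCACNCCAC were in 1 of 17 promoters of the cholesterol list, against 1.22% of all promoters.

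Glucose-responsive genes were led by Txnip, which inhibits thioredoxin and restrains glucose uptake. Its level was 0.77 in control and 3.33 in triple stimuli (difference 2.55, other probe 2.42), and -0.87 in hypoxia, 0.55 on array A, 2.34 on array B and 3.68 with rapamycin. The related arrestin gene Arrdc4 differed by 1.06 (0.41 to 1.47). Gpd1, a glycerol phosphate dehydrogenase, was measured in control but not in triple stimuli, with a bound of -1.11. The list of 10 measured genes had 2 higher and 0 lower, against 3.11% and 1.46% over all measured genes. Its median of 0.11 was -0.00 with scaling to the median spot. Among the kinases that switch off pyruvate dehydrogenase, Pdk4, a PPAR target, was also higher, from 0.74 to 2.82. Pdk2 had a bound on the other side, of -2.03 or lower, from a spot in the first 64 rows.

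Respiratory chain and proteasome genes had medians below 0, and no measured member of these lists reached 2-fold. Over all measured genes 7410 of 15503 were above 0. Of 27 measured subunits of respiratory complex I, 26 were below 0, with a median of -0.29, and the 31 of complexes II to V had a median of -0.25, led by Uqcrh (6.72 to 5.73, a difference of -0.99, other probe -1.21). The 30 proteasome subunits had a median of -0.25. The 29 measured mitochondrial ribosomal proteins had a median of -0.08, with Mrpl18 lower (-1.04) and Mrps18b at 0.61. Ribosome biogenesis stood on the other side, with 27 of 30 factors above 0 and a median of 0.30, though 0 reached 2-fold. Gnl3, a nucleolar protein, went from 1.66 to 2.55, and stood at 2.57 on array A and 1.37 in hypoxia. Over all alternative settings the medians ran from -0.40 to -0.19 for complex I and from 0.19 to 0.45 for ribosome biogenesis.

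Among redox genes 3 of 26 were higher and 0 lower, against 3.11% and 1.46% over all measured genes, and the median was -0.15. Hmox1, the inducible enzyme of heme breakdown, went from 4.92 to 7.35 (other probe 2.41), and the autophagy adaptor gene Sqstm1 from 3.26 to 4.80. Gclc, the limiting enzyme of glutathione synthesis, was at -0.81. Of the metallothionein genes, which bind zinc and copper and are close in sequence, Mt2 differed by 1.36 and Mt1 by 0.77. Growth arrest genes included Gadd45a (1.70 to 3.78) and Plk3 (2.47 to 4.01), and on the lower side Ccng1 (-1.13), Ei24 (-1.07) and Sesn1 (-1.01). Of the BCL2 family, which governs cell death, Pmaip1 was higher (2.71 to 4.46) and Bmf lower (-1.22 to -2.69), both of them promoters of apoptosis. The mTORC1 inhibitors also divided, with Ddit4 higher by 2.44 and its relative Ddit4l at -1.84 (0.82 to -1.02).

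Genes of epithelial state and matrix included some of the lowest differences. Sprr2g, a small proline-rich protein of the epithelial envelope with close relatives, went from 4.42 to 1.66, a 6.77-fold difference, and stood at 2.69 in hypoxia, 3.52 on array A, 4.16 on array B and 1.86 with rapamycin. Among 7 measured keratins, Krt42 (2.77), Krt19 (2.75) and Krt13 (1.17, first 64 rows) were higher, and Krt19 went from 3.69 to 6.44 with 5.83 in hypoxia. The matrix gene Thbs1 was lower, at 2.96 and 1.18, with 0.97 on array A. Tgfbi, a matrix protein induced by TGF-beta, was also lower (-1.22). Id3, an inhibitor of differentiation factors downstream of BMP signals, was lower by 1.61 on the log2 scale, with Id2 at -0.87 and Id1 at -0.78. The BMP-responsive factor gene Atoh8 and the inhibitory Smad gene Smad6 were measured in control but not in triple stimuli, with bounds of -2.07 and -1.88. Smad6 had its spot in the first 64 rows.

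Of the 9 measured proximal tubule genes 3 were lower and 1 higher, against 1.46% and 3.11% over all measured genes. Lower were the endocytic receptor gene Lrp2 (3.53 to 2.43), its adaptor gene Dab2 (-0.76 to -1.78) and the cadherin gene Cdh6 (1.97 to 0.96). Aqp1 was at 3.20 and 2.27. The bicarbonate cotransporter gene Slc4a4 was higher, from -2.94 to -1.17 (other probe 2.09), with -0.76 in hypoxia. Outside that list, Slc6a19, the brush border transporter of neutral amino acids, was at -1.17 and -2.98, and its neighbour in the family, Slc6a18, had a bound of -1.95. Cldn2, the cation-permeable claudin of the proximal tubule, had a bound of -1.49.

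Several of the genes with the lowest values encode enzymes. Dhrs3, which reduces retinal, was at 4.96 in control and 2.78 in triple stimuli (probe on mm9 chromosome 4, 144517485 to 144517544), and at 4.83 in hypoxia, 3.95 on array A, 4.97 on array B and 2.66 with rapamycin. Aldh4a1, a mitochondrial enzyme of proline breakdown, was at 3.93 and 1.94 (chromosome 4, 139205420 to 139205479), with 3.57 in hypoxia and 3.12 on array A. In both genes the triple stimuli array and the rapamycin array lay below the other 4. Hsd3b4, of the hydroxysteroid dehydrogenases, differed by -2.26 and Akr1c19, an aldo-keto reductase, by -1.74, and both belong to families with close relatives. Cyp1a1, a target of the aryl hydrocarbon receptor, was at -0.26 and -2.51, and is dim. It was the 1 lower gene of 7 measured on the aryl hydrocarbon receptor list, with 0 higher. Over all measured genes the shares were 1.46% lower and 3.11% higher. On that list 3 genes were above 0 (Tiparp 0.92, Cyp1b1 0.27, Aldh3a1 0.11) and 4 below. Nr1h4, the bile acid receptor FXR, was at 0.72 and -1.08 (chromosome 10, 88917222 to 88917281). Nod1, a sensor of bacterial cell walls, differed by -1.90, Cys1, a protein of the primary cilium, by -1.92, and Gmpr, which converts GMP to IMP, by -1.65. On the higher side, Hsd17b2, which oxidises estradiol and testosterone, went from -3.24 to -0.25, with 0.00 in hypoxia (chromosome 8, 120282508 to 120282567). Lims2, a focal adhesion adaptor, went from -1.57 to 1.74, with 1.41 on array A, 0.24 in hypoxia and -1.54 on array B (chromosome 18, 32118211 to 32118270). Positions are those that the files list for the probes on build mm9, and whether they lie in coding or untranslated exons was not analysed here.

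**Figure D4:**
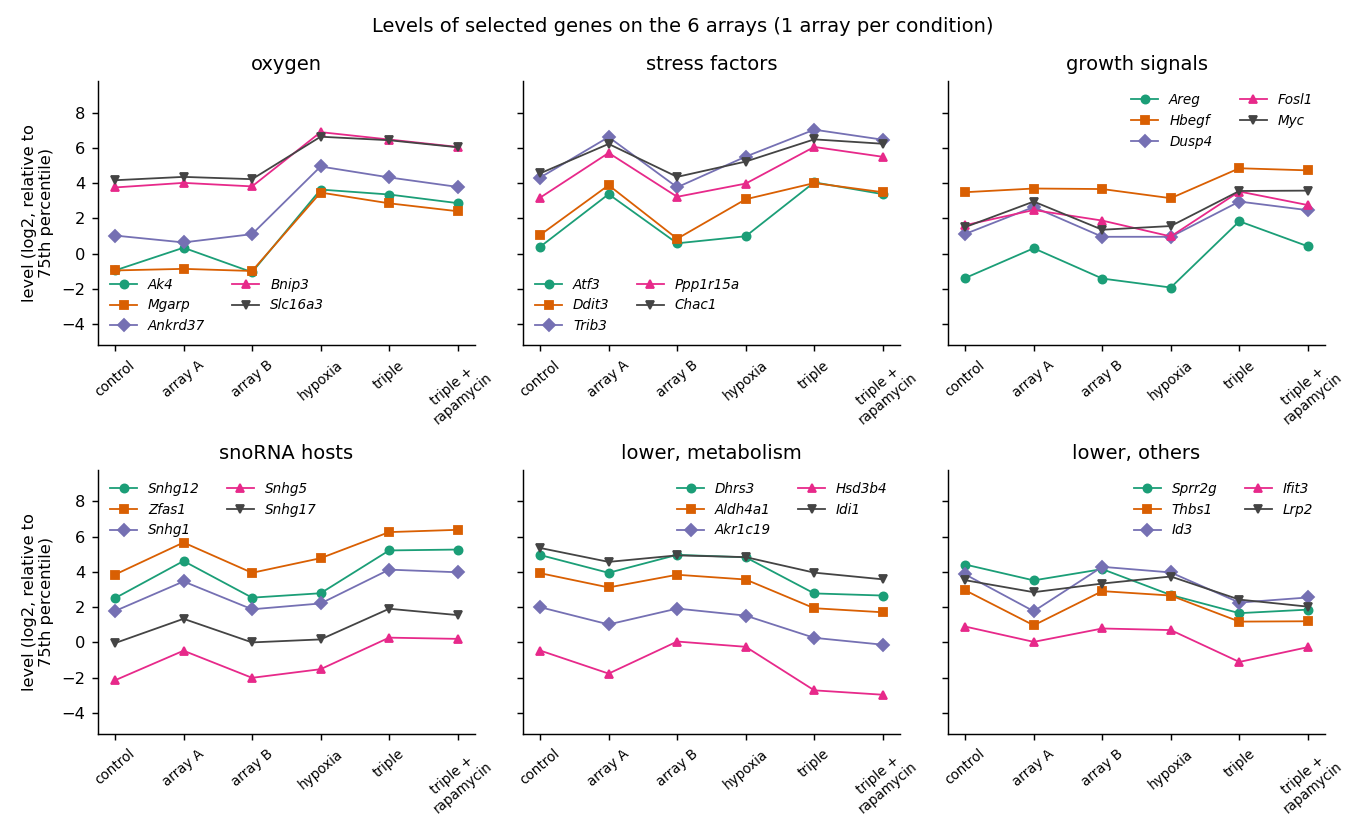
Level (log2, relative to the 75th percentile of each array) of 30 genes on the 6 arrays, 1 array per condition, in 6 panels; lines join the values of a gene across conditions and do not stand for a course in time. The oxygen genes are high on the 3 arrays at 1% oxygen, Atf3 is high on array A (3.38), triple stimuli (4.05) and rapamycin (3.38), and Dhrs3 is low in triple stimuli (2.78) and with rapamycin (2.66).

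Clock genes held 3 higher and 1 lower of 11 measured, against 3.11% and 1.46% over all measured genes. Ciart, a repressor of the clock, went from -2.29 to 0.36 (first 64 rows), Nfil3 from 2.47 to 5.00 and Bhlhe40, also a HIF target, from 1.07 to 2.85. Dbp, which Nfil3 opposes at shared sites, was at 1.40 and 0.36 (other probe -1.11). Of the markers of other cell types, 1 of 8 fibroblast genes, 3 of 10 endothelial, 4 of 10 immune, 1 of 11 distal tubule and 2 of 8 podocyte genes on the array were measured on both arrays. In bulk RNA fewer cells of a type and less RNA per cell cannot be told apart. The pan-leukocyte gene Ptprc and the endothelial gene Cdh5 were not well above background on either. Flt1, a VEGF receptor, was higher by 2.08 (other probe 2.83), with 1.18 in hypoxia, and Cd68, a lysosomal protein of macrophages, by 1.39 (first 64 rows), with 1.05 on array A. The other measured members of these lists were under 2-fold, with Egfl7 at -0.74 and Kdr at 0.00 among endothelial genes, and Csf1r at -0.09, Cd3e at 0.04 and Itgam at 0.23 among immune genes.

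The direction of these differences was also read in a pair of arrays with no array in common with the first: triple stimuli with rapamycin against array B. That pair differs in the conditions it compares, since rapamycin was present on one side and 1 single stimulus on the other, so it is no replicate. Among 15168 genes measured on the 4 arrays, 429 (2.83%) were higher in triple stimuli against control and 326 (2.15%) in the other pair, with 211 in both (49.2% and 64.7% of the respective lists). On the lower side 221 (1.46%) and 251 (1.65%) were called and 112 in both (50.7% and 44.6%), the last being 55 over bright genes. Of the 429 genes 405 had the same sign in the other pair, as had 218 of the 221, and 0 were 2-fold in the opposite direction. The share with the same sign over all 15168 genes was not computed, so these counts have no background to be read against. Both pairs set a 1% oxygen array on the second slide row against a 20% array on the first. By the smaller of both differences, the leading genes with an established symbol were Ak4 (4.32 and 3.92), Mgarp (3.81 and 3.39), Lims2 (3.30 and 3.14) and Atf3 (3.66 and 2.79). On the lower side they were Sprr2g (-2.76 and -2.30), Hsd3b4 (-2.26 and -3.02), Cyp1a1 (-2.25 and -2.57) and Dhrs3 (-2.18 and -2.31). Areg gave 3.21 and 1.82.

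**Figure D5:**
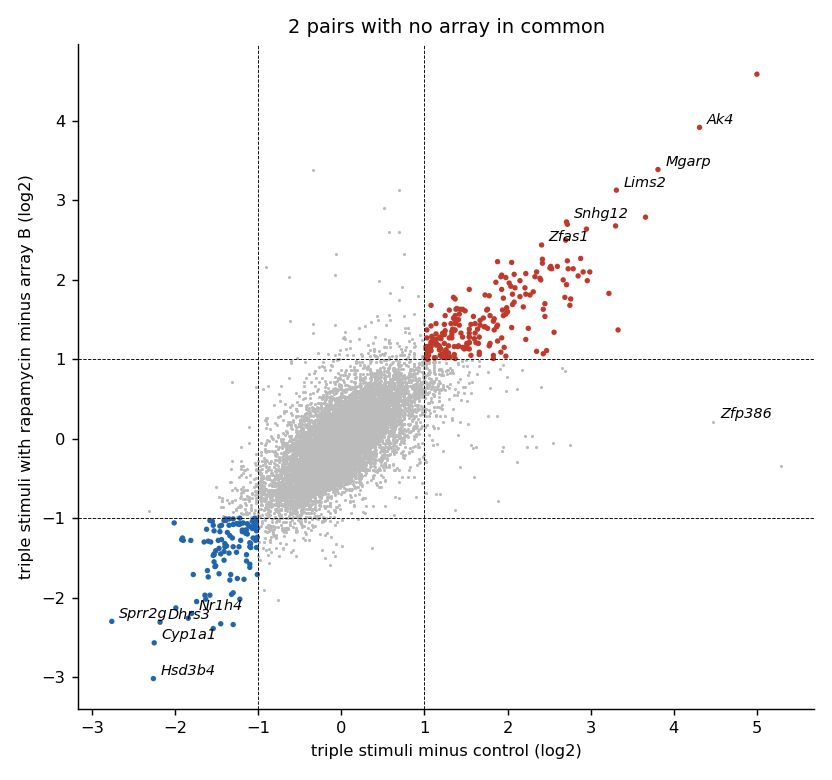
Difference of triple stimuli minus control (x axis, log2) against triple stimuli with rapamycin minus array B (y axis, log2) for 15168 genes measured on the 4 arrays. Coloured points, 211 higher and 112 lower, are at least 2-fold in the same direction in both pairs; Zfp386 lies at 4.47 on the x axis and 0.21 on the y axis.

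Several values rest on 1 probe or 1 array. Zfp386 differed by 4.47, but its control level of -0.98 was below 3.49 to 3.73 on the other 5 arrays, and its other probes gave 0.10 and -0.03. Among the higher genes 88 had another measured probe, of which 79 had all other probes on the same side of 0 and 49 had them all at least 2-fold. Among the lower genes these counts were 38 and 19 of 40. Sort1, which sorts proteins to the lysosome, gave -1.91 and 0.22, and Ccdc167 -1.52 and -0.09.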

How the data were processed

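Total RNA was labelled with Cy3 and hybridised to single-colour Agilent arrays. The scanner files hold a background-subtracted, detrended signal intensity per spot from Agilent Feature Extraction 10.7.3.1, not scaled between arrays, per the file headers and, for the version, the submitters' processing notes. The authors' deposited table gives each probe a ratio of its signal over the 75th percentile of its array, as read from its values, and was an alternative. The scanner software's flags and positions, deposited in the same files, were used as given.

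From the scanner files, log2 intensity minus the log2 75th percentile of non-control spots was averaged over the spots of each of 55681 probes. Of these, 323 with outlier marks were left out. The brightest probe over the 6 arrays stood for each of 34505 gene names, 22096 of them matched to RefSeq. A gene measured on only 1 of the 2 compared arrays was given a bound. Its dim side was set at its own level or, where that was lower, at the lowest level marked as well above background there. The precision is limited by the number of arrays, 1 per condition. The gene lists (56, with 1152 genes, 916 of them measured) and the named genes (15 per direction, 5 bounds, 4 per list, 10 per direction in both pairs, and 5 per direction with disagreeing probes) were chosen with earlier results of these data known. List members named outside these were chosen after their values were seen. Counting was tested on simulated data. Alternatives were median scaling, quantile normalization and normexp with an offset of 50 (limma 3.58.1, R 4.3.3), the value table, other filters, probe rules and bands of spot rows. Python 3.11.15, pandas 2.3.3 and numpy 2.4.6 were used. Some members of the lists are counted but not reported by name here.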

Additional observations from a re-analysis of the deposited data

How the results depend on the processing

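The count of 482 higher genes was 287 with normexp background, 895 when 1 of the arrays had to be above background, 2467 with no background filter, 271 over bright genes and 147 in the last 2 bands of spot rows. The count of 226 lower genes was 354 with scaling to the median spot, 112 with normexp, 1200 without a filter, 105 over bright genes and 75 in the last 2 bands. The 112 genes lower in both pairs were 55 over bright genes. All 126 named genes at least 2-fold different kept their sign under every setting in which they had a value, with 19 under 2-fold with normexp and 7 with median scaling. Some list medians turned sign: collagen hydroxylases to -0.01 with median scaling and -0.04 without a filter, EGF family from 0.98 to -0.05 in the last 2 bands, which hold Egfr alone of its 5 members, MondoA targets to -0.00 with median scaling. The BCL2 family turned to -0.00 over bright genes and over rows 65 and above, and to -0.21 in the last 2 bands. Aryl hydrocarbon receptor genes turned to 0.11 with the mean of probes, 0.11 over rows 65 and above and 0.01 in the last 2 bands, and proximal tubule genes to 0.60 without a filter and 0.03 in the last 2 bands. Of cell type markers, fibroblast genes turned to -0.01 with median scaling and -0.12 without a filter, distal tubule genes to 0.18 with 1 array above background and 0.59 without a filter, and podocyte genes to 0.01 without a filter and 0.28 over bright genes. Fewer genes enter under bright genes and bands; the cause of the other shifts was not tested. No paired analysis was possible because each condition has 1 array and the labels give no replicate numbers.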

Other observations

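A group outside the pathways above is the host genes of small nucleolar RNAs, noncoding transcripts whose introns release the RNAs that guide modification of ribosomal RNA. The list was assembled after Snhg12 and Zfas1 appeared among the leading genes, so its values are a description. Of 18 such genes on the array 13 were measured, 7 were at least 2-fold higher and 0 lower, and the median was 1.52. That median was 0.46 with the mean of all probes of a gene and 0.99 over bright genes. Snhg12 was at 2.51 in control and 5.22 in triple stimuli, 2.79 in hypoxia, 4.62 on array A, 2.54 on array B and 5.27 with rapamycin. Zfas1 was at 3.85 and 6.26, and at 4.78, 5.67, 3.95 and 6.39 on the other arrays in the same order. Snhg5 (2.42), Snhg1 (2.35) and Snhg17 (1.94, first 64 rows) were also higher. For Snhg16 and Gas5, higher by 2.39 and 1.52 with the brightest probe, other probes gave 0.10, and 0.11 and -0.34. Dancr (-0.22), Snhg3 (-0.35) and Snhg18 (-0.65) were below 0.

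Some genes were well above background on 1 array alone. On the triple stimuli array there were 320 such genes, of which 187 (58.4%) had their spot in the first 64 rows, against 13.9% of the 439 on the control array alone. On the other arrays at 1% oxygen the share was 45.1% in hypoxia and 51.1% with rapamycin, and on arrays A and B it was 16.3% and 17.7%. Named among those of the triple stimuli array after their values were seen are Krt15 (-0.56, against -5.76 to -4.77 on the other 5 arrays; first 64 rows) and Gjb2 (-1.40, against -5.72 to -4.34; row 163). Rtl3, at 0.31 with a bound of 3.97, lay at -5.80 to -5.23 on the other 5 arrays.

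Among genes without an established name, 2610528A11Rik, chosen after its values were seen, differed by 5.00 (-1.30 in control, 3.70 in triple stimuli), with 4.93 in hypoxia, -1.48 on array A, -1.50 on array B and 3.09 with rapamycin. Its spot lies in row 4.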
